A study of Mus musculus with 8 samples.

Results

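The translation initiation and elongation factor genes of the mouse were examined for binding of ASH2L at their promoters. Members were all protein-coding genes of the GENCODE annotation of mm10 whose symbol begins with Eif or Eef followed by a number. There were 68 such genes among 21938 protein-coding genes. A promoter site was an ASH2L site centred within 1 kb of any annotated transcription start site (TSS) of the gene. By this measure 32 of the 68 genes had a promoter site (47.1%, Wilson 95% interval 35.7 to 58.8), whereas 14.0% of all protein-coding genes did (3078 of 21938). The interval covers counting error over genes only, since the site list has no replicates.

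ASH2L is a core subunit of the KMT2 complexes, which methylate lysine 4 of histone H3, mostly at promoters and enhancers. The translation factors act in order on each mRNA. In initiation, eIF1 and eIF1A bind the small ribosomal subunit, eIF2 brings the initiator tRNA, eIF3 forms the scaffold on which the complex assembles, and eIF4F (the cap-binding eIF4E, the scaffold eIF4G and the RNA helicase eIF4A) recruits the mRNA. Thereafter eIF5 triggers GTP hydrolysis by eIF2, eIF5B joins the large subunit, and eIF2B recharges eIF2 with GTP. In elongation, eEF1A delivers aminoacyl-tRNAs, the eEF1B subunits recharge eEF1A, eEF2 translocates the ribosome and eIF5A relieves stalling. Stress kinases phosphorylate the alpha subunit of eIF2, which blocks eIF2B and lowers initiation. They are HRI (Eif2ak1), PKR (Eif2ak2), PERK (Eif2ak3) and GCN2 (Eif2ak4).

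The cells were iMEF, immortalised mouse embryo fibroblasts. They carried floxed Ash2l alleles of which exon 4 had been deleted with an inducible Cre, and a lentiviral human ASH2L with an N-terminal FKBP12F36V tag and HA epitopes was the only ASH2L in every group. The lines are selected clones. The 8 libraries form 4 groups of 2, which are ASH2L precipitates and inputs from cells without dTAG treatment and from cells given dTAG, a degrader of the tagged protein, for 1 h. The labels give Ash2l as the antibody of the precipitates and none for the inputs, whereas the study's text names antibodies selective for HA. The list analysed holds 6444 sites pooled by the authors over all samples, each with a chromosome, a start and an end. It has no signal per library, so it shows neither the depth nor the effect of dTAG at any gene, and neither expression nor histone methylation was measured in it.

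As examples, stretches of 200 bases are given from the widest site of each initiation and elongation group. They are read on the strand of the gene from GRCm38.p6 (RefSeq), with CpG dinucleotides in capitals. Each is the stretch nearest the site centre without a base of an untranslated exon of a protein-coding gene. A stretch can thus lie off the centre, and its base counts are not those of the whole site. They lie at chr11:100320382-100320581 in Eif1, chr15:43282378-43282577 in Eif3e, chr16:23107244-23107443 just before the start of Eif4a2 and chr9:78481037-78481236 in Eef1a1. A stretch of the Eif3h site, chr15:51837120-51837319, was added after its values were seen, because it is the only one of the 37 sites that overlapped no CpG island.
Eif1: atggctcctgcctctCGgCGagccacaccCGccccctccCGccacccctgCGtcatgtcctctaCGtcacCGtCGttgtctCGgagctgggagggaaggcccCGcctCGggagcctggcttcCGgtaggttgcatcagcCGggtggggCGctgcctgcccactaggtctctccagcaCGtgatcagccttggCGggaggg
Eif3e: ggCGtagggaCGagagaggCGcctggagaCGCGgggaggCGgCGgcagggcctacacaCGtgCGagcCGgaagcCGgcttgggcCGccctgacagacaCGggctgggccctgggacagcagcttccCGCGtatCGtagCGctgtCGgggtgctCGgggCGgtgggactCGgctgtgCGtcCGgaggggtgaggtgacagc
Eif4a2: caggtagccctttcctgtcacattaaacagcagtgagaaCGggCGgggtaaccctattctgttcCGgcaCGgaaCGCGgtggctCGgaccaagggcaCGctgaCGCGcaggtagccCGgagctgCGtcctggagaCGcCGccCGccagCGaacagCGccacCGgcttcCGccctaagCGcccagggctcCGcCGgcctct
Eef1a1: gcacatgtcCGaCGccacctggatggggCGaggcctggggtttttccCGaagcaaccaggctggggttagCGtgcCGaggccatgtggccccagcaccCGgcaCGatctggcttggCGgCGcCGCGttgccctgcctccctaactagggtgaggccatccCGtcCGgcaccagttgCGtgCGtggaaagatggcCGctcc
Eif3h: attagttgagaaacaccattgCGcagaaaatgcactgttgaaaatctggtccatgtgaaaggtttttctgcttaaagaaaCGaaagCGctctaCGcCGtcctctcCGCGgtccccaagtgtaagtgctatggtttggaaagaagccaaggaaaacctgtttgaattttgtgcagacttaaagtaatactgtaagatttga
The first 4 stretches hold 16, 23, 22 and 17 CpG dinucleotides with a GC content of 67.5% to 73.0%. The Eif3h stretch holds 7 CpG with a GC content of 41.5%, and it is lower than the others on both measures. Islands are defined by GC content and CpG, so this difference follows in part from how the stretch was chosen.

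The groups of factors were compared by their share of genes with a promoter site. The share was 50.0% in the initiation core (eIF1, eIF1A, eIF2, eIF2B, eIF5, eIF5B and eIF6; 8 of 16 genes, 28.0 to 72.0). It was 64.3% for the eIF3 subunits (9 of 14, 38.8 to 83.7) and 54.5% for the eIF4 group (6 of 11, 28.0 to 78.7). The 3 initiation groups together had 23 of 41 genes with a site (56.1%, 41.0 to 70.1), and the elongation factors had 5 of 8 (62.5%, 30.6 to 86.3). The intervals of these 4 groups overlap widely, so initiation and elongation factors could not be separated by this measure, and all 4 lie above the 14.0% of protein-coding genes. For the initiation core this did not hold when sites shared with another protein-coding gene were left out, a setting added after the data were seen. The core then had 4 of 16 (interval 10.2% to 49.5%), an interval that includes the 10.4% of all genes counted in that way, and the elongation factors had 3 of 8 (37.5%, 13.7 to 69.4). Among the eIF2 kinases 0 of 4 genes had a site. A count of 0 of 4 genes allows a share of up to 75.0% by the limit of 3 counts and up to 49.0% by the Wilson interval, so the kinases could not be told apart from the other groups or from all protein-coding genes. The accessory and regulatory genes had a site at 4 of 15 (26.7%, 10.9 to 52.0), an interval that includes the share of all genes. Counting only sites at least as wide as the median of the list (268 bp), 24 of the 68 members had one, beside 8.99% of protein-coding genes. At this setting the initiation core had 5 of 16 and the elongation factors 3 of 8. When a site counted only for the gene with the nearest TSS, the accessory and regulatory genes had 2 of 15, beside 11.8% of protein-coding genes.

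**Figure D1:**
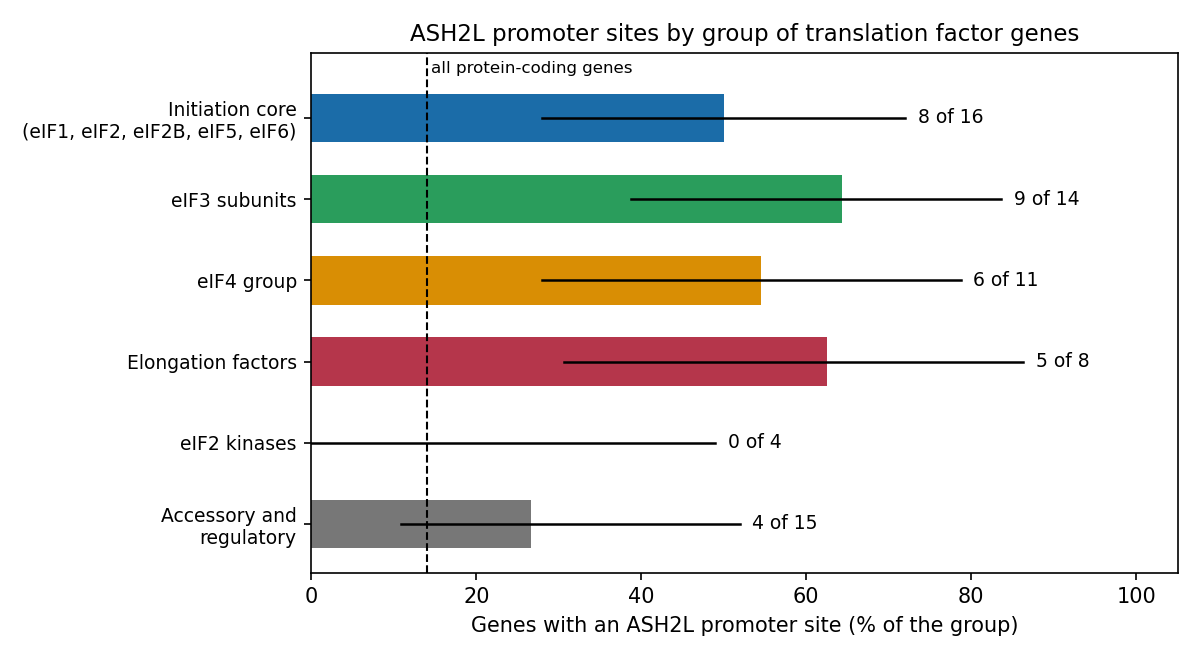
Share of genes with an ASH2L promoter site in each group of translation factor genes, in percent of the group, with bars for the share and lines for the Wilson 95% interval. The dashed line marks the 14.0% of all protein-coding genes, and the counts beside the lines run from 0 of 4 for the eIF2 kinases to 9 of 14 for the eIF3 subunits.

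Nearly all members have a CpG island at a TSS, and 92.0% of the promoter sites of protein-coding genes overlapped such an island. An overlap by any number of bases was counted. Islands were computed from sequence (at least 200 bp long, GC above 50% and CpG above 0.6 of its expected number). An island was present at most 1 kb from a TSS in 67 of the 68 members and in 73.4% of all protein-coding genes. Among genes with an island, 32 of 67 members and 19.0% of protein-coding genes had a site. The lone member without an island was Eif4e1b, a germline relative of the cap-binding protein, which had no site.

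Positions are given for the initiation core first. Eif1, the factor that keeps start codon selection accurate, had a site of 575 bp at chr11:100320149-100320723. Its centre lay 551 bp downstream of the principal TSS, the start of the best supported main transcript, and 82 bp upstream of an internal TSS. Its paralogue Eif1b had none, and the nearest site to it was 246934 bp away. Eif1a had a site of 403 bp at chr18:46597138-46597540, centred 362 bp upstream of its own TSS and 25 bp from that of its divergent neighbour Tmed7. The X-linked relative Eif1ax had none within 359308 bp. Eif1a was no longer counted when a site went only to the gene with the nearest TSS or when shared sites were left out, so its difference from Eif1ax rests on a site that cannot be assigned to Eif1a alone.

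Within eIF2 itself, the genes of the beta subunit and the X-linked gamma subunit had a site. The site of Eif2s2 was 237 bp wide at chr2:154892538-154892774, in an untranslated exon 126 bp downstream of the nearest TSS. The site of Eif2s3x was 416 bp wide at chrX:94212583-94212998 and covered its principal TSS. Eif2s1, which encodes the alpha subunit that the stress kinases phosphorylate, had no site within 310504 bp. Eif2s3y, the Y-linked copy of the gamma subunit, had none, and the nearest site on its chromosome was 89717248 bp away. Of the 183 protein-coding genes on the Y chromosome 0 had a site, so the absence is not particular to Eif2s3y.

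Of the 5 subunits of eIF2B, 3 had a site. Eif2b5, the catalytic subunit, had a site of 200 bp at chr16:20498895-20499094, 177 bp downstream of its TSS in coding sequence. The sites of Eif2b1 (chr5:124578993-124579213, 221 bp) and Eif2b4 (chr5:31193433-31193715, 283 bp), both regulatory subunits, lay at divergent promoters shared with Gtf2h3 and Snx17. At such a promoter a site cannot be assigned to 1 of the genes. Eif2b2 and Eif2b3 had no site within 108603 bp and 39281 bp.

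Eif5b had 2 sites, chr1:37997869-37998257 (389 bp) over the TSS and chr1:37998533-37998754 (222 bp) in the first part of the gene, both within 1 kb of the TSS of its neighbour Txndc9 as well. Eif5, the GTPase activator of eIF2, had none within 31887 bp, nor had Eif6, which keeps free large subunits apart from small ones, within 60286 bp. Only sites 1 kb or less from a TSS were counted, and none of the 8 core genes without a site came near that limit.

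Among the eIF3 subunits, Eif3a, Eif3b and Eif3c had a site. The site of Eif3a was 471 bp wide at chr19:60790064-60790534, 344 bp downstream of the TSS. That of Eif3b spanned the TSS with 413 bp at chr5:140419188-140419600, and that of Eif3c was 200 bp wide at chr7:126565792-126565991, 520 bp downstream of the principal TSS. The value of 200 bp is the smallest width in the whole list. The sites of Eif3a, Eif3b and Eif3c therefore ranged in position from over the TSS to wholly within the transcribed region.

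Of the other eIF3 subunits, Eif3e had the widest site, 540 bp at chr15:43282209-43282748, over the TSS. Eif3f had 308 bp at chr7:108934196-108934503, Eif3i 271 bp at chr4:129600467-129600737, Eif3l 240 bp at chr15:79075115-79075354 and Eif3m 455 bp at chr2:105016628-105017082. The last 4 sites all covered the principal TSS, and those of Eif3i and Eif3m lay at promoters shared with Tmem234 and Ccdc73. The site of Eif3f had a GC content of 50.0%, against 61.3% to 70.5% for the other eIF3 sites over a principal TSS.

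Eif3h was counted by the rule but differs from the rest. Its site of 305 bp at chr15:51837068-51837372 was intronic, 963 bp upstream of an internal TSS of a noncoding transcript and 28303 bp downstream of the principal TSS. Its GC content was 35.7%, the lowest of all 37 sites. The gene body held 3 more sites farther than 1 kb from any TSS, and the main promoter of Eif3h had none. It was no longer counted when sites had to be centred within 500 bp of a TSS, when only the outermost TSS of each gene was used, or when only coding transcripts were used.

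The eIF3 genes without a site were Eif3d, Eif3g, Eif3j1, Eif3j2 and Eif3k. Eif3d, which encodes a subunit with cap-binding activity, lay 118018 bp from the nearest site, Eif3j1 86532 bp, Eif3j2 39862 bp and Eif3k 140024 bp. Eif3g lay nearest to a site of these, at 8456 bp. None of the 5 came within 3 kb of a site.

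In the eIF4 group the genes with a site encode the helicase, the scaffold and the helicase cofactors. Both eIF4A helicase genes had 2 sites. For Eif4a1 these were chr11:69671773-69672194 (422 bp) and chr11:69671387-69671592 (206 bp), centred 334 bp and 828 bp downstream of the principal TSS. For Eif4a2 they were chr16:23107214-23107913 (700 bp), over the TSS, and chr16:23108516-23108715 (200 bp), 1171 bp downstream of the principal TSS and near an internal one. The cofactors of the helicase, Eif4b (chr15:102074009-102074358, 350 bp) and Eif4h (chr5:134639062-134639370, 309 bp), had 1 site each. The paralogues Eif4a1 and Eif4a2 were thus alike in having a pair of sites in the first part of the gene.

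Of the scaffold genes, Eif4g1 had sites at chr16:20672837-20673204 (368 bp) and chr16:20673368-20673606 (239 bp). The former had a GC content of 81.8%, the highest among the members. Eif4g2, which encodes a relative that does not bind eIF4E, had a site of 574 bp at chr7:111082106-111082679, while Eif4g3 had none within 103234 bp. When only the outermost TSS of each gene was used, Eif4g1 was no longer counted, because its annotation begins upstream of the principal TSS. The genes of the cap-binding proteins had no site. The nearest ones to Eif4e, Eif4e2, Eif4e3 and Eif4e1b were 194897, 509942, 10231 and 89973 bp away, and the site nearest to Eif4e3 lay within its own gene body. A count of 0 of 4 genes does not tell them apart from the other genes of the group or from the 14.0% of all genes, as for the kinases.

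The widest site of the family was found at an elongation factor gene. Eef1a1, one of the most abundant proteins of growing cells, had a site of 1045 bp at chr9:78480615-78481659, wider than 97.1% of promoter sites of protein-coding genes. It began just downstream of the principal TSS and was centred 587 bp into the gene. Eef2 had a site of 715 bp at chr10:81176643-81177357, at the percentile 93.3 of width, centred 369 bp downstream of the TSS. Eef1a2, the form of eEF1A of muscle and neurons, had no site within 190757 bp. The 2 genes of eEF1A thus differed, with a site only at the form that is used in most tissues. Eef1a1 was no longer counted when only the outermost TSS was used, since its annotation begins upstream of the principal TSS as well.

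The exchange factor of eEF1A is encoded by Eef1b2, Eef1d and Eef1g. Eef1b2 had sites at chr1:63176560-63177177 (618 bp) and chr1:63177303-63177613 (311 bp), and the first was centred 35 bp from the TSS of its divergent neighbour Ndufs1. Eef1d had a site of 214 bp at chr15:75909100-75909313, within 1 kb of the TSS of Tigd5 also, and Eef1g had none within 13062 bp. Of the eIF5A genes, Eif5a2 had a site of 235 bp at chr3:28781428-28781662, 269 bp downstream of its TSS. The site nearest to Eif5a, the form used in most cells, was 200 bp wide at chr11:69919332-69919531 within the gene and was centred 1127 bp from its nearest TSS. This was the only member just outside the limit of 1 kb, and it was counted when the limit was 3 kb. The members just inside the limit were Eif3h at 963 bp and Eef1akmt4 at 849 bp.

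The eIF2 kinase genes had no promoter site. The nearest sites were 54610 bp from Eif2ak1, which senses heme deficiency, 34266 bp from Eif2ak2, which senses double-stranded RNA, 543245 bp from Eif2ak3, which senses stress of the endoplasmic reticulum, and 262233 bp from Eif2ak4, which senses uncharged tRNAs. All 4 genes have a CpG island by the measure used here, as 67 of the 68 members do.

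Of the 15 accessory and regulatory genes, 4 had a site. Eif4enif1, which encodes the eIF4E transporter 4E-T, had a site of 952 bp over the TSS at chr11:3202144-3203095, the second widest of the family at the percentile 96.5. Eef1akmt2, a lysine methyltransferase of eEF1A, had 281 bp at chr7:132852492-132852772, over the TSS. The sites of Eef1akmt4 (chr16:20610645-20610844, 200 bp) and Eif1ad (chr19:5366528-5367075, 548 bp) lay 3 bp from the TSS of Alg3 and 10 bp from that of Banf1, and thus nearer to a neighbour than to the member. The 3 genes of the 4E-binding proteins, which hold eIF4E away from eIF4G and are targets of mTOR, had none, with the nearest sites to Eif4ebp1, Eif4ebp2 and Eif4ebp3 at 131685, 189419 and 80306 bp. A count of 0 of 3 genes allows a share of up to 56.1% by the Wilson interval and does not tell them apart from the 14.0% of all genes. Eef2k, the kinase of eEF2, was also without one at 26010 bp.

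The other accessory genes without a site were Eef1akmt1 (65049 bp to the nearest), Eef1akmt3 (22092 bp), Eef1e1 (365355 bp), Eef2kmt (100376 bp), Eif2a (32857 bp), Eif2d (743884 bp) and Eif4a3 (123934 bp). They include further methyltransferases of elongation factors, a component of the multisynthetase complex, alternative initiation factors and a helicase of the exon junction complex.

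Members without a site lay at distances like those of other genes. Of these 36 genes, 34 lay more than 10 kb and 19 more than 100 kb from the nearest site, with a median of 101805 bp. The respective shares were 94.4% and 52.8%, beside 93.9% and 56.3% of the 18860 protein-coding genes without a site, whose median was 123896 bp. The 2 members nearer than 10 kb were Eif3g and Eif5a.

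**Figure D2:**
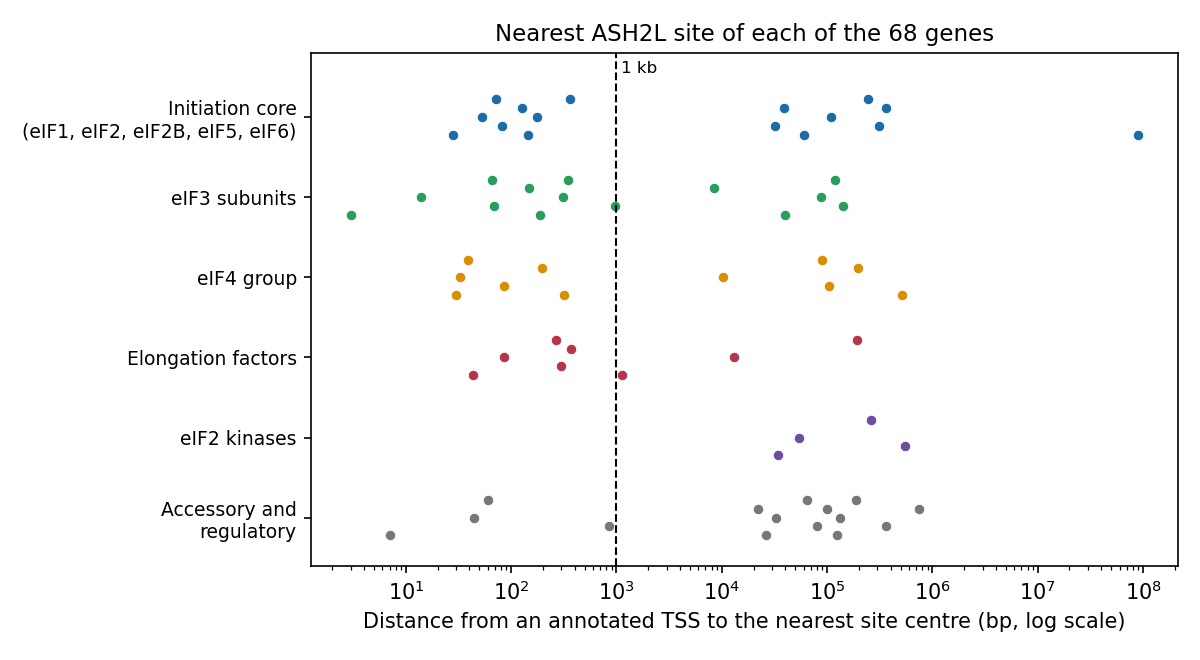
Distance from an annotated TSS of each of the 68 genes to the centre of the nearest ASH2L site, in bp on a log scale, by group. Each point is 1 gene and the dashed line marks the limit of 1 kb, with Eif3h at 963 bp and Eif5a at 1127 bp on either side of it and Eif2s3y at the far right.

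The 32 members had 37 distinct sites. There were 27 members with 1 site and 5 with 2 (Eif5b, Eif4a1, Eif4a2, Eif4g1 and Eef1b2), a share with more than 1 site of 15.6%, beside 14.8% of all protein-coding genes with a site. Relative to the principal TSS, 31 of the 37 sites were centred downstream (83.8%), at a median of 225 bp with quartiles of 46 and 520 bp. For the 3640 pairs of a protein-coding gene and a promoter site, 71.2% were centred downstream with a median of 168 bp. The principal TSS itself was covered by 15 of the 37 sites (40.5%) and by 32.3% of the pairs. Measured from the nearest TSS of any protein-coding gene, 21 sites were downstream and 15 upstream (58.3% downstream, with 1 tie), against 67.3% for the promoter sites of all protein-coding genes. The lean of the members to the downstream side thus depended on which TSS was taken, and no difference from other genes is drawn from it. The centres lay in introns for 16 sites, untranslated exons for 10, coding exons for 4, exons of noncoding transcripts for 3 and upstream of the gene for 4.

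**Figure D3:**
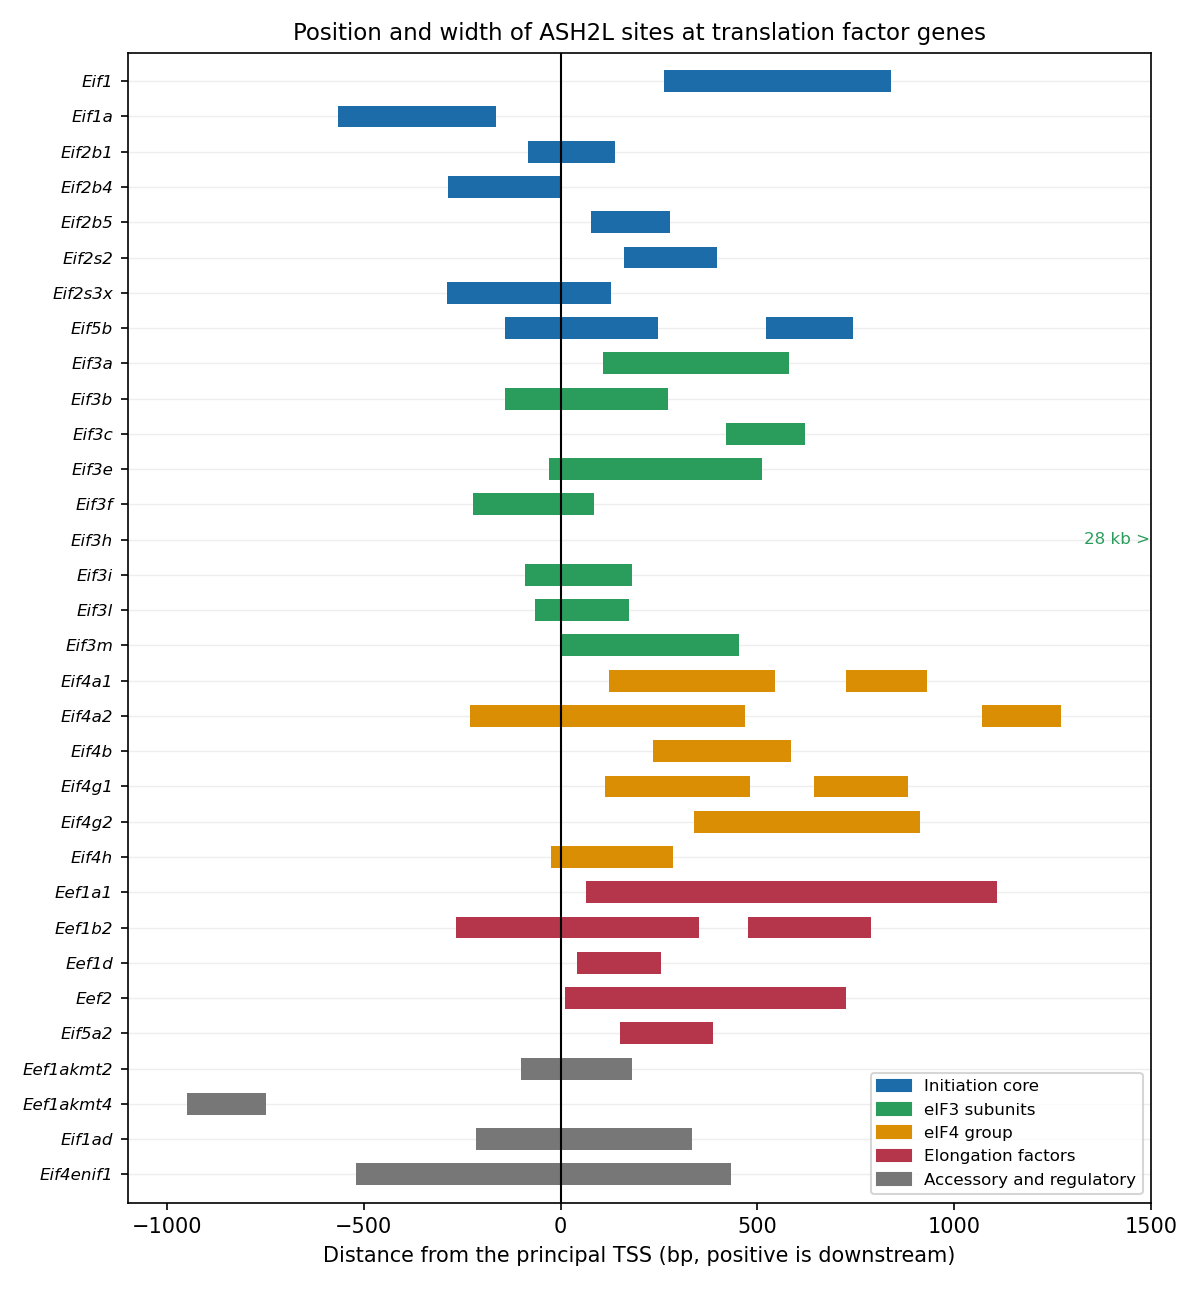
Position and width of the 37 promoter sites relative to the principal TSS of each gene, in bp, with downstream positive. Each bar is 1 site coloured by group and the black line is the principal TSS, and the site of Eif3h is off the scale at 28303 bp downstream. Of the bars, 15 cross the line and most others lie to its right.

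The sites of the members resembled those of other genes in width and base composition. Their median width was 311 bp with quartiles of 237 and 471 bp, beside 305 bp (232 and 425 bp) for the 3168 promoter sites of protein-coding genes. Over 500 bp were 9 of the 37 (24.3%), beside 17.0% of all. The median GC content was 66.2%, beside 66.5%, and 36 of the 37 overlapped a CpG island (97.3%), beside 92.0%. By group, the median width was 283 bp in the initiation core, 308 bp for eIF3, 350 bp for eIF4 and 464.5 bp for the elongation factors, the last from 6 sites. For the accessory and regulatory genes it was 414.5 bp, from 4 sites. The list holds no peak height, so width is the only property of a site that relates to its extent, and whether it follows the amount of ASH2L was not tested.

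**Figure D4:**
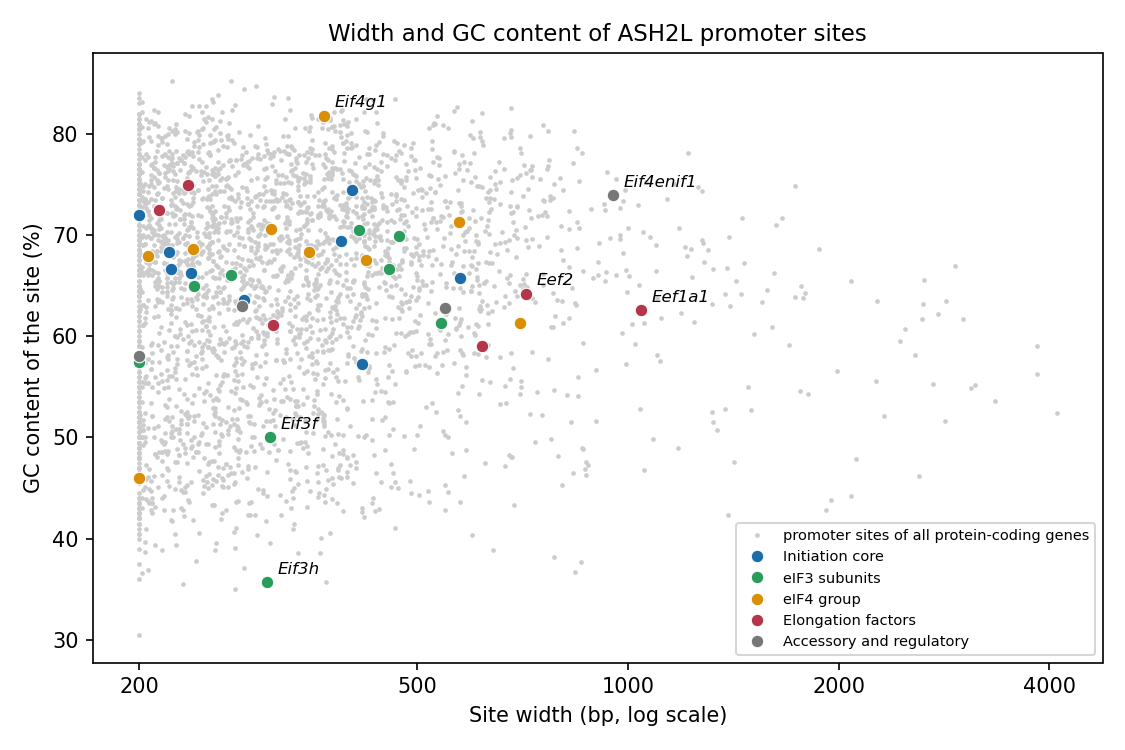
Width in bp on a log scale against GC content in percent for the 37 sites at translation factor genes, coloured by group, over the 3168 promoter sites of all protein-coding genes in grey. The members lie within the range of the grey points, with Eef1a1 the widest at 1045 bp, Eif4g1 the richest in GC at 81.8% and Eif3h the poorest at 35.7%.

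A number of sites could not be assigned to a member alone. Of the 37 sites, 12 at 10 members were also within 1 kb of a TSS of another protein-coding gene. Without such sites 22 members had one, beside 10.4% of protein-coding genes counted in that way. A divergent TSS of another gene, on the opposite strand within 1 kb upstream, was present at 11 of the 32 members with a site (34.4%) and 8 of the 36 without (22.2%). The respective shares of protein-coding genes with and without a site were 36.7% and 15.2%. The members with a site thus had divergent neighbours about as often as other genes with a site.

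Motifs were searched as exact letters on both strands in a window from 250 bases before to 50 after the principal TSS. The E-box CACGTG, bound by MYC, MAX, USF and related factors, was found in 7 of the 32 members with a site (21.9%) and 2 of the 36 without (5.56%). The shares were 7.72% of all protein-coding genes and 9.10% of those with a site. In a window of 250 bases on both sides the counts were 11 and 5, beside 10.3% of all genes. The difference in counts between the members with and without a site was not tested, and the motif is a match of letters, not a measured factor. This motif was singled out after the counts were seen, as the one whose number differed most between the members with and without a site. Its surroundings are shown for 7 members, with 20 bases on each side, on the strand of the gene and with the E-box in capitals. The first 5 had a promoter site, and Eif3k and Eef2k had none.
Eif3a: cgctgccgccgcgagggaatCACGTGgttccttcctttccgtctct
Eif3f: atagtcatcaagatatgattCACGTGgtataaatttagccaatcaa
Eif4g1: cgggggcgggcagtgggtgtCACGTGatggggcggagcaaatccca
Eif4h: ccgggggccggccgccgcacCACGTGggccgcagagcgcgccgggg
Eef2: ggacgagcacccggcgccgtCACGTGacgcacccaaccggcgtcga
Eif3k: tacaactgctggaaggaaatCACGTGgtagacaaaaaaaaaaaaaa
Eef2k: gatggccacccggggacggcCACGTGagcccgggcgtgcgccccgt
These stretches lie at chr19:60790646-60790691, chr7:108934327-108934372, chr16:20672653-20672698, chr5:134639480-134639525, chr10:81176568-81176613, chr7:28981907-28981952 and chr7:120842780-120842825. Relative to the principal TSS the E-boxes began at -28, -70, -50, -158, -43, -118 and -31, respectively. Only that of Eif3f was inside the ASH2L site, and those shown for the other 4 members with a site were outside it. The same letters also occur in the stretches printed above of the Eif3e site, inside the wider window only, and of the Eif1 site, outside both windows, so the counts do not cover all E-boxes in or near the sites. Eif4g1 had a further E-box just after the TSS, and the remaining members with both a site and an E-box were Eif5a2 and Eef1akmt4.

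The other motifs were counted in the same window. The ETS motif CCGGAAGT was present in 5 members with a site and 5 without (15.6% and 13.9%), beside 5.03% of all protein-coding genes and 11.1% of those with a site. NFY (CCAATNNG) was found in 6 and 4 members, SP/KLF (CCCCGCCCC) in 3 and 7, the NRF1 core (GCATGCGC) in 3 and 1, the core promoter element TATAAA in 3 and 2, YY1 (AAGATGGCG) in 1 and 0, and the CRE (TGACGTCA) in 1 and 0, the latter in Eef2. The shares of all protein-coding genes were 16.1% for NFY, 15.4% for SP/KLF, 3.73% for the NRF1 core, 12.6% for TATAAA, 1.86% for YY1 and 2.48% for the CRE. The C/EBP-ATF element (TTGCATCA), to which ATF4 binds in the integrated stress response, was found in none of the 68 windows, beside 0.957% of all genes. Its letters do occur outside the window searched, in the stretch of the Eif1 site printed above. In the window of 250 bases on both sides, 1 member had the C/EBP-ATF element and 4 had the YY1 motif. Many translation factor mRNAs begin with a C and a run of pyrimidines, the 5′ TOP motif that mTOR signalling acts on. An annotated principal TSS at a C followed by at least 4 pyrimidines was found in 2 of the 68 members, Eif2s1 and Eif3f, beside 2.27% of all genes. Annotated starts can be off by a few bases, so this does not count TOP mRNAs.

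Several members carry snoRNA genes within them, as ribosome-related genes are known to do. A snoRNA gene lay inside 9 of the 68 members (13.2%), beside 1.18% of all protein-coding genes. Of these 9 hosts, 7 had a promoter site (77.8%), beside 102 of the 259 hosts among protein-coding genes (39.4%). The hosts with a site were Eif4a2 with 5 snoRNA genes, Eif4a1 with 3, Eif3a and Eef1b2 with 2 each, and Eif4g1, Eif4g2 and Eef2 with 1 each. The hosts without one were Eif5 and Eif2ak3 with 1 each. The host counts are small, and no test was made of them.

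**Figure D5:**
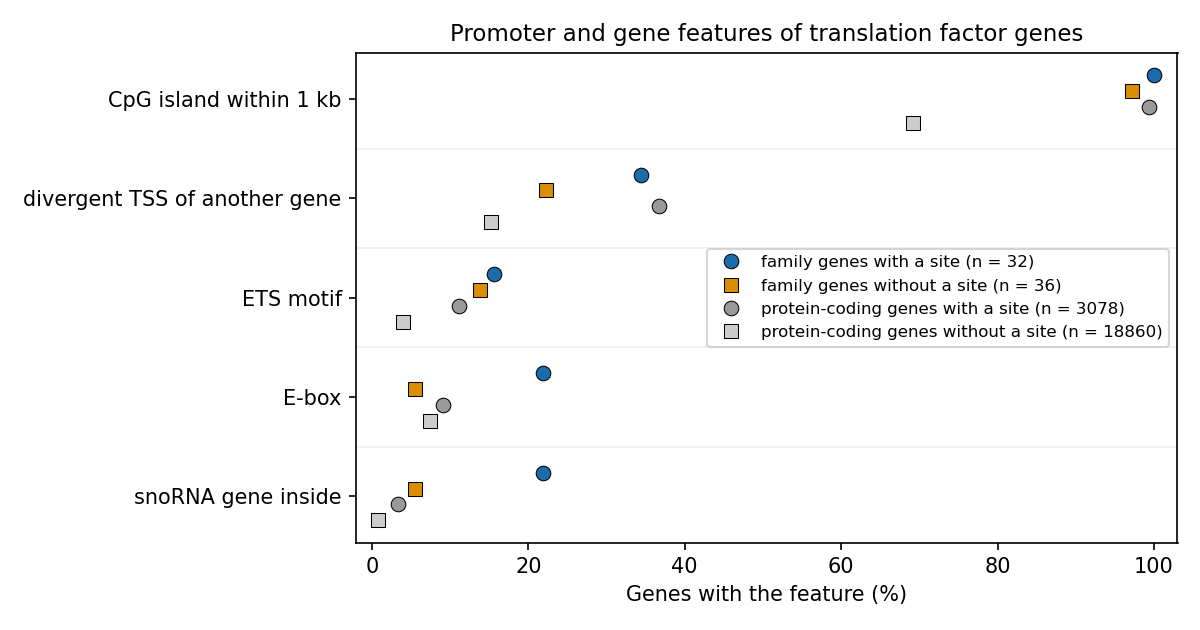
Share of genes in percent with a CpG island, a divergent TSS, an ETS motif, an E-box or an internal snoRNA gene. Circles are genes with a promoter site and squares genes without, in colour for the 32 and 36 translation factor genes and in grey for the 3078 and 18860 protein-coding genes, members included. The coloured circle stands to the right of the others for every feature but the divergent TSS. The gap is widest for the E-box and the snoRNA genes, both at 21.9%.

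The members were spread over the chromosomes. On chromosome 15 there were 6 members and 5 had a site (Eif3e, Eif3h, Eif3l, Eif4b and Eef1d), while 18.1% of its protein-coding genes did. Without chromosome 15, 27 of 62 members had a site, beside 13.9% of protein-coding genes, and so did 6 of 10 eIF3 genes. On chromosome 7, where 7.17% of protein-coding genes had a site, 4 of 6 members did. The share of the family was therefore not carried by 1 chromosome.

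Genes that work with the translation factors were counted from lists chosen with earlier results of these data known. The lists are short, and their shares were not tested. Of 47 annotated genes 17 had a promoter site (36.2%), beside 14.0% of all. Of the termination and recycling factors 3 of 4 had one, namely the release factors Etf1 and Gspt1 and the recycling factor Abce1. Of the initiation partners 3 of 10 had one, the poly(A)-binding protein gene Pabpc1, Paip1 with 2 sites and Larp1. The integrated stress response partners, which act with the kinases, had one at 4 of 8, the transcription factor gene Atf4, Ppp1r15b of the eIF2 phosphatase, Gcn1l1 (the activator of GCN2) and Dnajc3 (an inhibitor of PKR and PERK). The site of Ppp1r15b was nearest to a TSS of Gm26616. The sites of Atf4 were chr15:80255482-80256048 (567 bp) and chr15:80256302-80256528 (227 bp). Of the other partners, Ddit3, Trib3, Ppp1r15a and Impact had none. The kinase genes had none either, but they are too few to be told apart from these partners or from all protein-coding genes.

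The enzymes that modify eIF5A and eEF2 had a site at 2 of 9 genes (Dph1 and Dph7), the mTOR and MNK kinases with their regulators at 2 of 9 (Rptor and Tsc1) and the mitochondrial factors at 3 of 6 (Mtif2, Gfm1 and Gfm2). The site of Gfm2 was nearest to a TSS of Nsa2. Eefsec, the selenocysteine elongation factor, had none. The 11 annotated genes of other types with names of the family, most of them pseudogenes, had no promoter site. The share over all genes of those types was not counted, so nothing is drawn from this.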

How the data were processed

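ASH2L was profiled by ChIP-seq in 8 libraries of 4 groups with 2 replicates each. Per the study's methods, the authors used Trim Galore for trimming, BWA for alignment to mm10 (GENCODE release 25), SAMtools for filtering, Picard to merge replicates and MACS to call narrow peaks. The values in the deposited list are positions, pooled over all samples, with no count, score or signal per site, so a planned test of ASH2L signal after dTAG was not run from it and depth is not shown. The authors' list of sites changed after dTAG was not used here. Nothing in the labels says whether replicates were separate cultures.

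Starts were read as counted from 0 and are printed counted from 1. The 16 sites off the 21 assembled chromosomes were left out, leaving 6428. Genes and TSSs were those of GENCODE release 21, with sequence from GRCm38.p6 (RefSeq). The principal TSS was chosen from annotation by principal isoform rank, support level and transcript length. Members, groups and lists were chosen with earlier results of these data known. By rule, every member was named or counted, full positions were given for members with a site in the factor and kinase groups, and sequences for the widest site of each of these groups that had one, the accessory group excepted. Groups were compared by counts and Wilson 95% intervals, which cover counting error only, and no test was made. Alternatives changed the window, the TSSs, the assignment of sites, the widths, the island definition and the motif window. Figures were drawn with matplotlib 3.10.9, and values were computed with pandas 2.3.3, NumPy 2.4.6 and SciPy 1.17.1 under Python 3.11.15. The steps that call genes and islands were tested on simulated data.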

Additional observations from a re-analysis of the deposited data

How the results depend on the processing

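The count of 32 of 68 members with a promoter site was 30 with sites centred within 500 bp (12.5% of all protein-coding genes), 33 within 3 kb (15.4%), 29 with the outermost TSS only (12.3%), 31 with coding transcripts only (13.6%), 29 with the nearest TSS of any gene (11.8%), 32 with any base of the site within 1 kb (14.2%) and 24 with sites of at least the median width of 268 bp (8.99%). Over these settings and the restriction to CpG island genes, 53 values of the family and its groups stayed within 1.5 times of the reported ones and 3 did not. The accessory and regulatory genes had 2 with a site by the nearest TSS, and the initiation core had 5 and the elongation factors 3 with the wider sites. Alternatives chosen after seeing the data left out chromosome 15 or sites shared with another coding gene. Without shared sites the counts were 4 for the initiation core (interval 10.2% to 49.5%, which includes the 10.4% of all protein-coding genes), 3 for the elongation factors and 2 for the accessory genes. Of the 32 members, 19 kept their site in all 8 of these settings, 13 lost it in at least 1 and Eif5a gained one. In the motif window of 250 bases on both sides, 16 members had the E-box, 4 the YY1 motif and 1 the C/EBP-ATF element. No paired analysis was possible because the list has no values per sample, and for the same reason no replicate could be left out. Depth and peak strength are not shown by the list, so a gene without a site is not shown to lack ASH2L.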
